A study of Mus musculus with 9 samples.

Results

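The nuclear genes for the subunits of oxidative phosphorylation were followed through 9 RNA-seq libraries of mouse intestinal tract. They were taken by gene name: every gene of the expression table named as an Ndufa, Ndufb, Ndufc, Ndufs or Ndufv subunit, as Sdha to Sdhd, as a Uqcr subunit or Cyc1, as cytochrome c (Cycs), as a Cox4 to Cox8 subunit, or as an Atp5 subunit. The rule gave 87 of 55468 genes, and 13 names marked as pseudogenes were left out. By complex these were 36 genes of complex I, 4 of complex II, 9 of complex III, 1 for cytochrome c, 19 of complex IV and 18 of complex V. They carry 86 distinct names, because Atp5o is listed under 2 identifiers. In the GENCODE M21 annotation 86 of the 87 are protein coding, and Cox6c2 is a processed pseudogene despite its plain name. The genes lie on 19 chromosomes.

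Oxidative phosphorylation runs in the inner mitochondrial membrane. Complexes I and II pass electrons from NADH and succinate to ubiquinone, complex III passes them to cytochrome c, and complex IV passes them to oxygen. Complexes I, III and IV pump protons, and complex V, the ATP synthase, uses the proton gradient to make ATP. Most subunits are encoded in the nucleus and imported, while the core membrane subunits of complexes I, III, IV and V are encoded by mitochondrial DNA. In the intestine, absorptive enterocytes of the villus are rich in mitochondria, and butyrate oxidation feeds the chain in colonocytes. Tryptophan and niacin are both precursors of NAD, the carrier that brings electrons to complex I, and methionine is the source of S-adenosylmethionine, the main methyl donor.

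Each of the 9 conditions had 1 library, so no difference between 2 libraries could be set against a spread between replicates. In 8 of them the mice drank dextran sulfate sodium (DSS), an agent that injures the gut epithelium, from day 18. Libraries R, 1K, 2K and 3K are of day 28: R had the normal diet, 1K a methionine-deficient diet, 2K a diet lacking tryptophan and niacin, and 3K a diet deficient in all 3 nutrients. Libraries RR, 1KR, 2KR and 3KR are of day 33: RR stayed on the normal diet, and the others went back from the 1K, 2K or 3K diet to normal feed at day 28. The control C had no DSS and normal feed and was taken at day 34, so that DSS and sampling day cannot be told apart in comparisons with it. Strain, sex, age, the number of animals behind each library and the stretch of intestine taken are not given in the labels.

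Levels are in FPKM, fragments normalised to transcript length and to library size, so they can be compared between genes of different length. The libraries were not alike in make-up. In 2K, 6.46% of all FPKM came from 15 pancreatic acinar marker genes, and in 3K 8.75% did; no other library exceeded 0.0164%. Liver markers held 4.50% and stomach markers 2.2% in 2K. In 3KR, small RNAs held 50.16% of the summed FPKM, against 14.2% to 25.9% elsewhere, and this library had the lowest estimated depth, 14280000 fragments, against 22220000 to 31150000 in the others. At the median length of the subunit transcripts, 983 bases, 1 FPKM came to between 14.0 and 30.6 fragments. Counts over all libraries are therefore also given without 2K, 3K and 3KR. All 12 enterocyte markers reached 1 FPKM in every library.

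The subunit genes were strongly expressed, and their levels spanned more than 2 orders of magnitude. Of the 87 genes, 83 averaged at least 1 FPKM over the 9 libraries, 81 averaged at least 5 FPKM, and 80 reached 5 FPKM in every library. The 6 below a mean of 5 FPKM were Cox4i2, Cox6a2, Cox7b2, Cox8b and Cox8c, all restricted isoforms of complex IV, and the second Atp5o identifier, which overlaps the main one on chromosome 16 and ranged from 0.461 to 5.60 FPKM. The most abundant were Cox6b1, a small subunit on the outer face of complex IV, with a mean of 1165 FPKM, and Atp5b, the catalytic beta subunit of the ATP synthase, with 1099 FPKM. In complex III the highest mean was 296 FPKM for Uqcrh, the hinge protein that helps dock cytochrome c, and the lowest 88.8 FPKM for Uqcrfs1, the Rieske iron-sulfur protein. The 4 subunits of complex II lay close together, from 134 FPKM for Sdha, the flavoprotein, to 153 FPKM for Sdhc, a membrane anchor. Complex I ran from 16.1 FPKM for Ndufa13 to 192 FPKM for Ndufa4, a protein named for complex I that is now placed in complex IV. Cytochrome c itself, the only mobile protein carrier of the chain, averaged 44.5 FPKM.

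Promoters of such genes are known for binding sites of NRF1, of GABPA and other ETS factors, and of the estrogen-related receptors (ERR). Windows from 250 bases before to 50 bases after the start site (RefSeq, GRCm38.p6) were found by symbol for 69 of the 86 names, 74 windows in all. The NRF1 core letters gcgcangcg were in 29.7% of these windows, against 12.1% of windows of protein-coding genes averaging at least 1 FPKM and 6.25% of all 32851 windows. The ETS letters ccggaag were in 23.0%, against 16% and 8.86%. For YY1 (aagatggcg) the shares were 9.46%, 2.77% and 1.4%, for ERR (tcaaggtca) 2.7%, 0.247% and 0.423%, and for a CCAAT box (attggct) 14.9%, 10.4% and 7.86%. Both strands were searched, and no motif contains another. The ERR share rests on 2 windows, those of Atp5g3 and Sdhd. Median GC content was 57.5% in the members' windows and 60% in those of expressed coding genes. A match is a string of letters and not a measured binding site.

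The following 150-base stretches are shown because the levels of these genes are described next: Sdha and Sdhd of complex II, the most abundant complex III subunit, cytochrome c, and Cox7a2 and Cox7a1, the broad and the muscle-type isoform of complex IV subunit VIIa. Each ends before the more upstream of the RefSeq and GENCODE start sites, which is 40 bases before the RefSeq start for Sdha, 25 for Cox7a2, 27 for Cox7a1 and at most 1 for the others. Matches nearer the start, such as another NRF1 match of Sdha, lie outside the printed letters. Each reads 5′ to 3′ on the gene's strand, in GRCm38 coordinates, with motif matches in capitals. Sdha (chr13:74350281-74350430, minus strand) holds 2 separate NRF1 matches, Sdhd (chr9:50603850-50603999, minus) an NRF1 and an ETS match, Uqcrh (chr4:116075072-116075221, minus) an ETS match, Cycs (chr6:50566570-50566719, minus) an NRF1 match and a CCAAT box, and Cox7a2 (chr9:79759879-79760028, minus) and Cox7a1 (chr7:30183994-30184143, plus) none of the 5 motifs.
Sdha: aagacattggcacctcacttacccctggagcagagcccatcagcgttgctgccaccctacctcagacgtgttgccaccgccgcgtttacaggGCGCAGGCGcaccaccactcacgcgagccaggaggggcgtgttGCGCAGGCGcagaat
Sdhd: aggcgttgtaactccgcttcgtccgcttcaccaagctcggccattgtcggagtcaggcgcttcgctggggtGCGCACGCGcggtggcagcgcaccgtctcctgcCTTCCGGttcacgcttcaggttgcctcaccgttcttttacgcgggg
Uqcrh: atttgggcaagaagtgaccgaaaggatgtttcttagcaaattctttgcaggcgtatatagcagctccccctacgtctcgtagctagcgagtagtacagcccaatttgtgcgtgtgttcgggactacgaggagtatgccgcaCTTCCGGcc
Cycs: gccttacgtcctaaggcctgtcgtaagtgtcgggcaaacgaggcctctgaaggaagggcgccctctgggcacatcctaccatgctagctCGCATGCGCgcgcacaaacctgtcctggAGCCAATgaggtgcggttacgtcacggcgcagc
Cox7a2: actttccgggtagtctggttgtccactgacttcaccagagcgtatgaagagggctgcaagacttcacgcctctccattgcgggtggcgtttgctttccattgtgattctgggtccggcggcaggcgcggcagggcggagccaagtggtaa
Cox7a1: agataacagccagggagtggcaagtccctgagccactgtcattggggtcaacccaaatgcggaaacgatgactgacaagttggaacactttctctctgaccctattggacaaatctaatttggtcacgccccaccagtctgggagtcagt

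The genes shared a common profile over the libraries. Each gene's log2 level was taken relative to its own mean over the 9 libraries, on the log2(FPKM + 0.5) scale, for the 81 genes averaging 5 FPKM or more. The median of these relative levels was 0.58 in 1KR, 0.36 in RR, 0.35 in 1K and 0.29 in 2KR, and it was -0.16 in 3KR, -0.21 in 2K, -0.32 in C, -0.44 in R and -0.44 in 3K. Above their own mean were 81 of the 81 genes in 1KR, 80 in 2KR, 79 in RR and 77 in 1K, against 25 in 3KR, 18 in 2K, 4 in C, 2 in 3K and 1 in R. Over all 10547 genes with such a mean the shares above were 55%, 54.6%, 53.8% and 60.8% in the first 4, and 43.9%, 48.7%, 42.6%, 45.6% and 44.6% in the other 5. Taking off the library medians removed 73.3% of the summed squared relative levels. Some neighbours in this order did not separate: RR was above 1K in 43 of 81 genes, R above 3K in 37 and 3KR above 2K in 41. The step from 2KR to 3KR was 0.46, with 75 of 81 genes higher in 2KR.

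**Figure D1:**
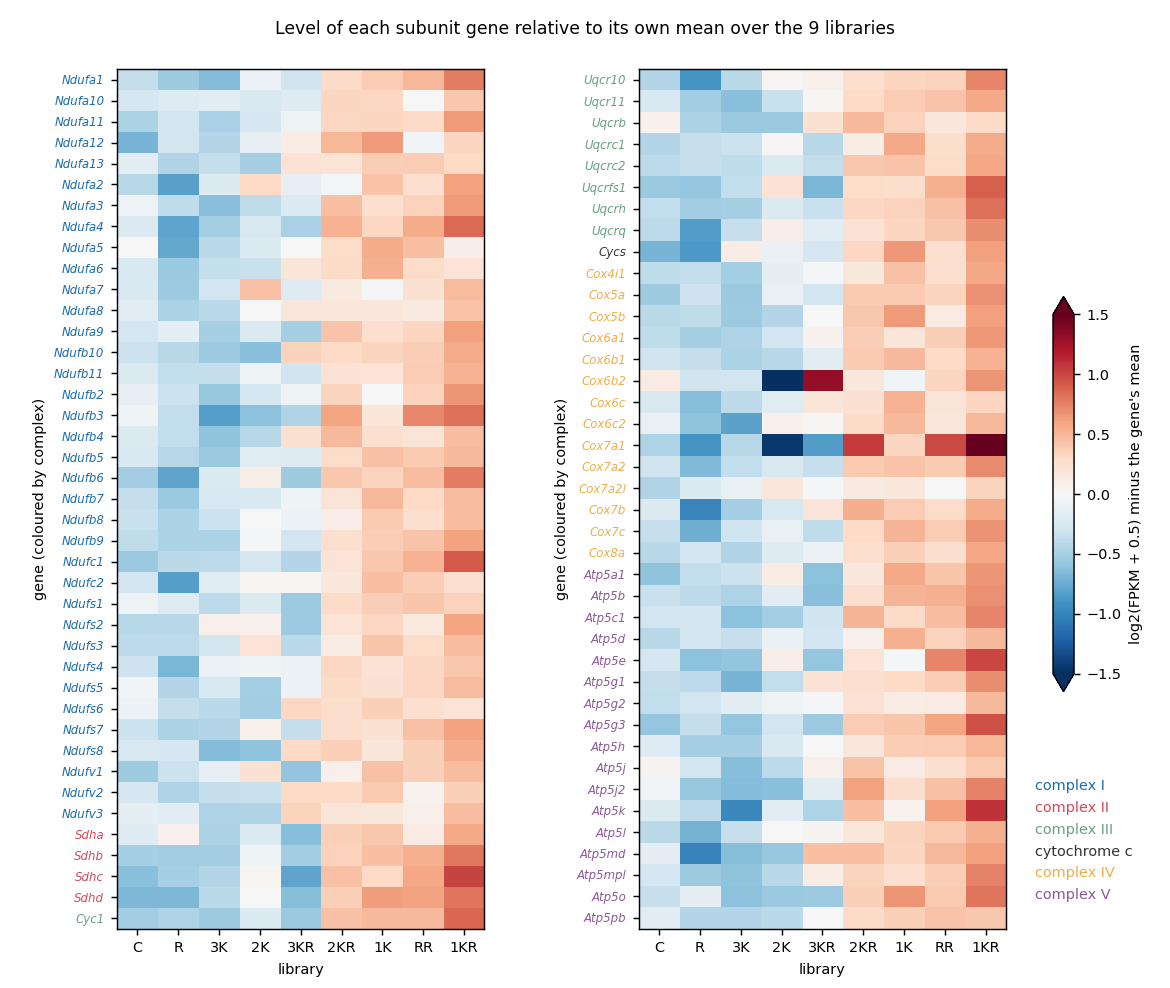
Level of each of the 81 subunit genes averaging 5 FPKM or more (vertical axis, names coloured by complex) in each of the 9 libraries (horizontal axis), as log2(FPKM + 0.5) minus the gene's own mean. The libraries 2KR, 1K, RR and 1KR at the right are above the mean in 77 to 81 genes, and R, at the second place, in 1.

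The same showed in the extremes. Among the 83 genes averaging at least 1 FPKM, 1KR was the highest of the 9 libraries in 62, against 10% of all 17631 genes at that level, and R was the lowest in 28, against 7.39%. The control C was the highest in 0 of the 83, against 8.46% of all genes, and the lowest in 11, against 8.31%. Without 2K, 3K and 3KR, 1KR was the highest of the 6 remaining libraries in 63 of 83 genes (15.3% of all genes), R the lowest in 57 (16.2%) and C the lowest in 25 (19.4%). Over those 6 libraries 80 of 81 genes were above their own mean in 1KR, 74 in RR, 77 in 2KR and 73 in 1K, and none in R or C.

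Atp5b shows the shared profile on a large scale. It stood at 827 FPKM in C, 795 in R, 1479.9 in 1K, 938 in 2K, 759 in 3K, 1506 in RR, 1679 in 1KR, 1235 in 2KR and 673 in 3KR. Cox6b1 stood at 913, 879, 1574, 838, 807, 1384, 1612, 1479 and 1002 FPKM in the same order. In both genes the values of 1K, RR, 1KR and 2KR were above all the rest, with a gap in Atp5b from 938 to 1235 FPKM and in Cox6b1 from 1002 to 1384 FPKM.

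At day 28 the library on the methionine-deficient diet held more subunit mRNA than the library on the normal diet. Of the 82 genes that reached 1 FPKM in 1K or R, 81 were higher in 1K than in R, with a median log2 difference of 0.81, while the median of all genes tested was 0.03 and 52.2% of them were higher. By at least 2-fold, 20 of 82 were higher, against 7.17% of all genes, and 0 lower, against 8.63%. All 36 genes of complex I, all 4 of complex II, all 9 of complex III and all 17 of complex V tested were higher in 1K, with medians of 0.76, 0.89, 0.90 and 0.79, and so were 14 of 15 in complex IV, with a median of 0.84. Among members that reached 5 FPKM in 1K or R, the largest differences were 1.51 for Cycs, 1.36 for Cox7b, a complex IV subunit encoded on the X chromosome, and 1.33 for Atp5md, a small subunit of the ATP synthase dimer. The single exception was Cox8b, at 1.29 FPKM in 1K and 1.99 FPKM in R. With libraries rescaled to a common total over nuclear protein-coding genes the median was 0.28, with 69 of 82 higher and 0 at least 2-fold higher, and with median-of-ratios scaling it was 0.61 with 81 of 82 higher and 10 at least 2-fold higher. Of all genes, 19.7% and 38.7% were higher under these scalings. The share of all genes past 2-fold was not taken under them, here or in the comparisons below.

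Cycs was at 25.6 FPKM in C, 22.9 in R, 66.2 in 1K, 38.9 in 2K, 45.3 in 3K, 49.7 in RR, 64.6 in 1KR, 52 in 2KR and 35 in 3KR. It was also higher in both other deficient diets of day 28 than in R, by 0.75 in 2K and 0.97 in 3K on the log2 scale. C and R were its lowest libraries.

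The diet without tryptophan and niacin and the diet without all 3 nutrients gave smaller differences from R. In 2K, 62 of 83 genes were higher and 21 lower, with a median of 0.24, against 50.9% of all genes higher with a median of 0.02. By at least 2-fold, 3 were higher (14.7% of all genes) and 1 lower (14.1%). In 3K, 46 were higher and 37 lower, with a median of 0.02, against 50.2% higher and a median of 0.00 for all genes, and 1 was at least 2-fold higher (11.6% of all genes) and 0 lower (13.4%). With the protein-coding total, both medians changed sign, to -0.34 in 2K and -0.30 in 3K. The median of all genes moved with them, to -0.53 and -0.31, so that the members lay 0.20 and 0.01 above all genes. The 3 diet comparisons of day 28 share R with each other and with RR against R. Both 2K and 3K carry the pancreatic marker RNA given above, and its part in these values was not tested.

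Within 2K, some genes of complex I stood out from their neighbours. Ndufa7, an accessory subunit of the matrix arm, was at 77.2 FPKM in C, 61.6 in R, 88.5 in 1K, 122 in 2K, 73.9 in 3K, 106 in RR, 126 in 1KR, 99.4 in 2KR and 78.9 in 3KR. Ndufa2, another matrix arm subunit, was at 29.1, 21.9, 52.5, 47.9, 33.7, 46.4, 59.4, 38.2 and 35.7 FPKM in that order. After the library medians were taken off, these had the remainders 0.65 and 0.51 in 2K, while Cox6b2 had -1.76 and Cox7a1 -1.23. The remainders had an SD over genes of 0.35 in 3KR and 0.34 in 2K, the highest, and of 0.15 in 2KR, the lowest.

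Between day 28 and day 33 on the normal diet with DSS, all 84 genes tested were higher in RR than in R, against 46.1% of all genes. The median was 0.83, against -0.05 for all genes, and 25 were at least 2-fold higher (5.42% of all genes) and 0 lower (5.29%). The complex medians were 0.75 for complex I, 1.07 for II, 0.95 for III, 0.80 for IV and 0.89 for V. Among members that reached 5 FPKM in RR or R, the largest differences were 1.88 for Cox7a1, 1.49 for Atp5md and 1.35 for Atp5e, the epsilon subunit of the ATP synthase. Below that floor, the second Atp5o identifier differed by 1.77, from 0.609 FPKM in R to 3.29 FPKM in RR. Atp5md was at 254 FPKM in C, 138 in R, 348 in 1K, 187 in 2K, 179 in 3K, 388 in RR, 427 in 1KR, 381 in 2KR and 380.4 in 3KR, so R was its lowest library. The smallest difference in complex II was that of Sdha, 0.05. The count at least 2-fold higher was 15 with median-of-ratios scaling and 12 with the protein-coding total.

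Complex II, the only complex with no mitochondrially encoded subunit, was uneven in that comparison. Sdhd, a membrane anchor, was at 85.9 FPKM in C, 86.3 in R, 212 in 1K, 138 in 2K, 104 in 3K, 209 in RR, 240.0 in 1KR, 176 in 2KR and 87.7 in 3KR. Sdha was at 114, 136, 172, 112, 93.4, 141, 193, 166 and 83.3 FPKM in the same order. Sdhd was thus close to equal in C, R and 3KR, whereas Sdha was nearly as high in R as in RR.

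Compared with the control, R and RR stood on different sides. In R, 58 of 82 genes were lower than in C and 24 higher, with a median of -0.15, against 51.5% of all genes higher and a median of 0.01. The gene at least 2-fold lower was Cox8b, 1 of 82 (3.22% of all genes), and 0 were at least 2-fold higher (4.43%). In RR, 83 of 84 genes were higher than in C, with a median of 0.66, against 48.1% of all genes and a median of -0.02, and 11 were at least 2-fold higher (6.71%; 6 and 4 under these scalings) and 0 lower (5.81%). Complex II had the highest complex median there, 1.12, with 3 of its 4 genes at least 2-fold higher. These comparisons share C, and R and RR differ in day.

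At day 33, after the return to normal feed, 1KR and 2KR were near RR and 3KR was below it. In 1KR, 75 of 84 genes were higher than in RR with a median of 0.29 (48.7% of all genes, median -0.01), and 0 passed 2-fold in either direction (2.47% of all genes higher, 3.51% lower). In 2KR, 32 were higher and 52 lower with a median of -0.07 (44.8% of all genes higher, median -0.04), again with 0 past 2-fold (2.67% and 3.67%). In 3KR, 75 of 85 genes were lower with a median of -0.45, against 51.9% of all genes higher and a median of 0.03, and 15 were at least 2-fold lower (9.73% of all genes; 9 and 8 under these scalings) and 0 higher (11.4%). Complex II had the lowest median there, -1.15, followed by complex III with -0.63, complex V with -0.52, complex I with -0.41 and complex IV with -0.30. These 3 comparisons share RR. Among members that reached 5 FPKM in 3KR or RR, the lowest in 3KR were Cox7a1 at -1.82, Sdhc at -1.37 and Atp5e at -1.32. Below that floor, Cox8b was at -1.53, from 4.45 FPKM in RR to 1.21 FPKM in 3KR. Sdhc was at 90.7 FPKM in C, 99.3 in R, 173 in 1K, 144 in 2K, 103 in 3K, 211 in RR, 283 in 1KR, 191 in 2KR and 80.9 in 3KR, its lowest library. Beside this, 3KR had the small RNA share and low depth given above, a smooth muscle marker median of 235 FPKM against 51.2 to 132 FPKM in the others, and a colonocyte marker median of 59.2 FPKM against 1.49 to 9.14 FPKM. The part of these in the result was not tested, and in bulk RNA fewer cells of a type and less RNA per cell cannot be told apart.

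The refed libraries were also set against the day 28 library on the deficient diet, so that day and feed changed together. The median was 0.24 in 1KR over 1K, with 69 of 84 genes higher (43.6% of all genes), 6 at least 2-fold higher (6.57% of all genes) and 0 lower (7.79%). It was 0.51 in 2KR over 2K, with 76 of 83 higher (45.6%), 7 at least 2-fold higher (13.5%) and 0 lower (19%). It was 0.25 in 3KR over 3K, with 64 of 84 higher (50.4%), 3 at least 2-fold higher (13.3%) and 1 lower (11.7%). The all-gene medians were -0.09, -0.10 and 0.01. In 3KR against 3K, members with transcripts of up to 1046 bases had a median of 0.41 (n = 41) and longer ones 0.04 (n = 40). Nuclear protein-coding genes averaging at least 1 FPKM, split at the same length, had 0.28 and -0.02. In RR against R the members' medians by length were 0.79 and 0.82, beside 0.36 and -0.02 for those genes. For 1K against R they were 0.80 and 0.84, beside 0.25 and 0.04. For 2KR against 2K they were 0.62 and 0.46, beside 0.32 and -0.03. For 1KR against 1K they were 0.25 and 0.18, beside 0.27 and -0.03, so short members lay no higher than short genes there. For 2K against R they were 0.22 and 0.25, beside 0.19 and 0.05. For 3KR against RR they were -0.38 and -0.61, beside -0.002 and -0.009. For R against C they were -0.27 and -0.03, beside -0.13 and 0.01.

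**Figure D2:**
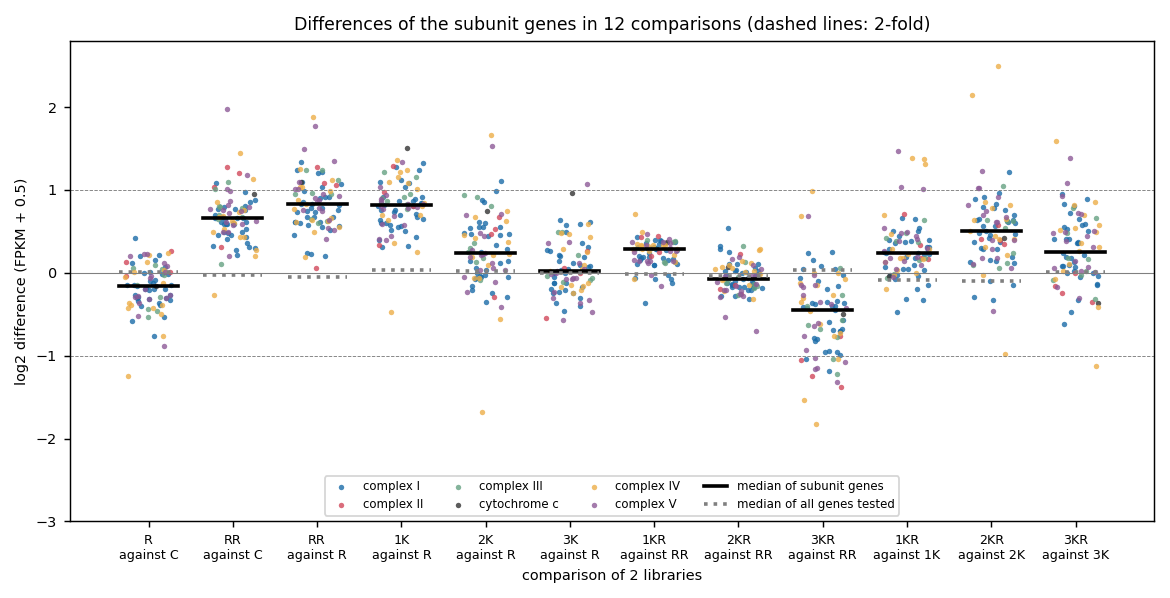
Differences in log2(FPKM + 0.5) of the subunit genes (vertical axis) in 12 comparisons of 2 libraries (horizontal axis), 1 point per gene coloured by complex, with the median of the subunit genes as a black bar and that of all genes tested as a dotted grey bar. The black bar is at 0.81 in 1K against R and 0.83 in RR against R, and at -0.45 in 3KR against RR.

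A scaling factor shifts every gene of a library alike, so the members' level relative to all genes is nearly fixed by construction and says nothing of stability. The members' median minus the all-gene median was 0.88, 0.87 and 0.87 in RR against R with FPKM as deposited, with median-of-ratios scaling and with scaling to the nuclear protein-coding total. It was 0.78, 0.78 and 0.76 in 1K against R, 0.69, 0.69 and 0.68 in RR against C, and -0.48 each time in 3KR against RR. The median of all genes itself moved by more than 0.1 in several comparisons, in 1K against R from 0.03 to -0.16 and to -0.48. In total the members held 1.17% of the summed FPKM in 3KR, 1.45% in 3K and 2.86% in 1KR, the lowest, the next and the highest. Of the FPKM of nuclear protein-coding genes they held 2.75% in 3KR, 1.90% in each of 3K and 2K, and 4% in 1KR, so that 3KR was the lowest on the first total and not on the second.

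The design was also fitted as a factorial with limma over 17577 genes of the 8 DSS libraries, which leaves 2 residual degrees of freedom and assumes that the effects of both deficiencies add. None of the 83 members tested passed an adjusted p of 0.05 in any term. Methionine deficiency at day 28 had a median coefficient of 0.29, with 78 members above 0, against 52.9% of all genes, and 0 members at an unadjusted p under 0.05. Tryptophan and niacin deficiency at day 28 had a median of -0.29, with 15 above 0, against 48.3%, and 1 member, Cox8b, at an unadjusted p under 0.05 (coefficient 1.36, SE 0.41, limma adjusted p = 0.204), beside 19.2% of all genes in either direction and 3.2% in the methionine term. The tryptophan and niacin term called 0.171% of all genes higher and 0.0171% lower, and the methionine term 0%. The deficient libraries behind the tryptophan and niacin term at day 28, 2K and 3K, are also those with the pancreatic marker RNA. Deficiency and tissue make-up cannot be told apart in this term. Without 1 of the day 28 libraries, each term came down to a single pair of libraries. The methionine median was -0.26 without R or without 1K, which left 3K against 2K. It was 0.81 without 2K or without 3K, which left 1K against R. The tryptophan and niacin median was -0.81 without R or without 2K (3K against 1K). It was 0.24 without 1K or without 3K (2K against R). The sign of each term thus changed with the other deficiency, while the fit assumes that both add.

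At day 33, when all diets were normal again, the term for former methionine deficiency had a median of -0.12, with 22 of 83 members above 0 against 50.2% of all genes, and that for tryptophan and niacin had -0.37, with 7 above 0 against 50.3%. Neither had a member at an unadjusted p under 0.05, and both called 0% of all genes. Without 1 of the day 33 libraries, these terms too came down to single pairs. The methionine median was -0.40 without RR or without 1KR (3KR against 2KR) and 0.29 without 2KR or without 3KR (1KR against RR). The other was -0.71 without RR or without 2KR (3KR against 1KR) and -0.07 without 1KR or without 3KR (2KR against RR). The term for day 33 minus day 28 over the diets also holds the return from the deficient diets to normal feed. It had a median of 0.45, and 83 of 83 members were above 0, against 47.1% of all genes. Its median was 0.17 without R or without 3K, 0.28 without 1KR or without 2KR, 0.65 without RR or without 3KR and 0.73 without 1K or without 2K. It called 0.00569% of genes higher and 0.137% lower, and 14 members were at an unadjusted p under 0.05, all higher at day 33, beside 6.96% of all genes at such a p that were higher and 8.47% that were lower. The smallest p among members were those of Ndufs8, an iron-sulfur subunit of complex I, with 0.72 (SE 0.18, limma adjusted p = 0.267), Cox6b2 with 1.27 (SE 0.32, adjusted p = 0.267) and Ndufb10 with 0.71 (SE 0.20, adjusted p = 0.279). Ndufs8 was at 30.6 FPKM in C, 30.3 in R, 41.1 in 1K, 23.7 in 2K, 22.8 in 3K, 46.4 in RR, 53.0 in 1KR, 46.6 in 2KR and 44.4 in 3KR, so each day 33 library was above each day 28 library. The interactions of diet with day called none of the members, 0% of all genes for methionine, and for tryptophan and niacin 0.00569% of genes higher and 0.142% lower. The smallest adjusted p there was 0.498, for Cox8b in the term for tryptophan and niacin (-2.24, SE 0.57), and 0 members were at an unadjusted p under 0.05 for methionine by day.

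Some isoform genes departed from the common profile. Cox7a1 (chr7:30184144-30186078, plus strand), the isoform of subunit VIIa typical of heart and skeletal muscle, had the largest SD over the 9 libraries of the 81 members averaging 5 FPKM or more, 1.06 in log2, against a median of 0.42. It was at 27.8 FPKM in C, 20.5 in R, 48.2 in 1K, 13.8 in 2K, 28.7 in 3K, 76.8 in RR, 126 in 1KR, 80.4 in 2KR and 21.4 in 3KR. Its broadly expressed paralog Cox7a2 (chr9:79755361-79759878, minus strand) was at 180.2, 140.2, 298, 188, 171, 288, 363, 291 and 174 FPKM in the same order. As a share of Cox7a2, Cox7a1 was 26.7% in RR, 34.7% in 1KR and 27.6% in 2KR, between 14.6% and 16.8% in C and in R, 1K and 3K, 12.3% in 3KR and 7.35% in 2K. The levels of 1K and RR were nearly equal for Cox7a2 and not for Cox7a1. The listed striated muscle markers had medians of 0.048 to 1.56 FPKM, and Ckm, muscle creatine kinase, was at 5.48, 5.66 and 3.92 FPKM in RR, 1KR and 2KR, below its 9.69 in 3KR and its 6.82 in R.

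Cox7a2l, a relative of Cox7a2 that joins complexes III and IV into supercomplexes, had the smallest SD, 0.23. It was at 65.9 FPKM in C, 78.1 in R, 100.3 in 1K, 101 in 2K, 83.0 in 3K, 89.4 in RR, 113 in 1KR, 99 in 2KR and 89.3 in 3KR, and it differed by 0.00 between 3KR and RR. Atp5g2, from the gene trio for the c-ring subunit of the ATP synthase, and Ndufa10 came next, each with an SD of 0.27. Atp5g1 was between 13.3% and 18.5% of the level of Atp5g3 in 8 libraries and at 27.1% in 3KR, where Atp5g3 was at 299 FPKM and Atp5g1 at 81.1 FPKM.

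Cox6b2, the testis-type partner of Cox6b1, was at 8.89 FPKM in C, 6.5 in R, 7.87 in 1K, 1.69 in 2K, 6.59 in 3K, 10.3 in RR, 13.1 in 1KR, 9.20 in 2KR and 20.9 in 3KR. It was 1 of 2 members, among the 83, that were highest in 3KR, against 13.8% of all genes. Cox8b, the isoform of subunit VIII found in heart, skeletal muscle and brown fat, was at 5.44, 1.99, 1.29, 7.39, 3.24, 4.45, 4.19, 3.49 and 1.21 FPKM in that order, and 2K was its highest library. The brown fat genes Ucp1 and Cidea were at 3.81 and 3.55 FPKM in 2K and at 0.740 and 1.24 FPKM in 3K, against at most 0.096 and 0.604 FPKM in the others. Dio2 was at 2.13 FPKM in 2K and 1.46 FPKM in 3K, but at 5.19 FPKM in 3KR. Of the 11 adipocyte and brown fat markers, 9 could be compared between 2K and R, and 6 were higher, each at least 2-fold, and 3 lower, with a median of 1.23. Adipoq, a general fat gene, was at 11.0 FPKM in 2K, below its 20.7 in R and 35.4 in C. Their part in the Cox8b value was not tested. Cox6a2 and Cox4i2 stayed at or under 1.39 and 1.58 FPKM, Cox7b2 was listed at 0 except for 0.101 FPKM in C, and Cox8c was listed at 0 in every library. Reads of Cox6c2, an intronless copy of Cox6c, may come from its parent gene. Its level was 12.3% to 19.7% of that of Cox6c in each library.

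**Figure D3:**
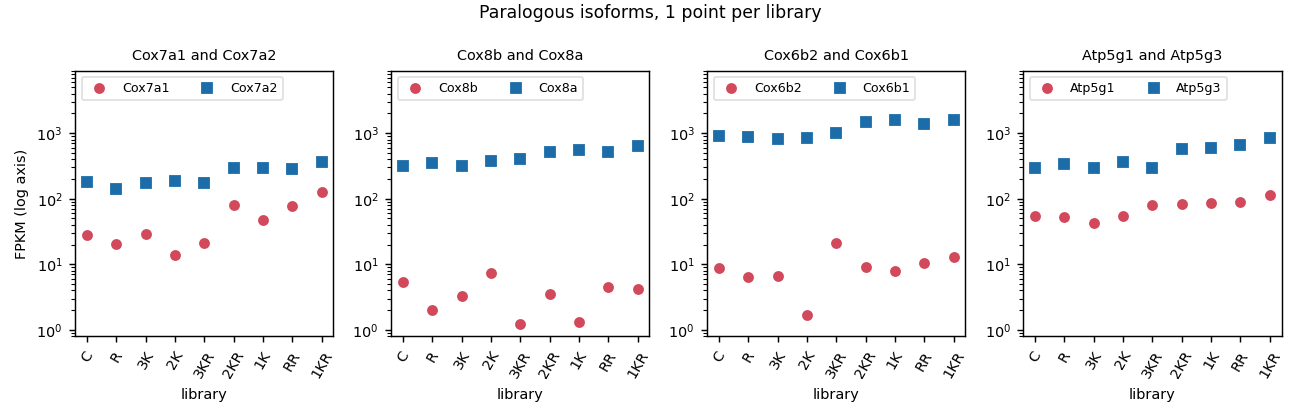
FPKM (vertical axis, log scale) of paired isoform genes in the 9 libraries (horizontal axis), 1 point per library. Cox7a1 spans 13.8 to 126 FPKM while Cox7a2 spans 140.2 to 363 FPKM, and Cox6b2 lies between 1.69 FPKM in 2K and 20.9 FPKM in 3KR.

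Other mitochondrial gene lists were higher in RR than in R as well. In RR against R the medians were 0.41 for 46 assembly factors, which build the complexes without staying in them (42 higher, 1 at least 2-fold higher), 0.48 for 17 TCA cycle genes (15 higher), 0.62 for 19 import genes (19 higher), 0.61 for 78 mitochondrial ribosomal proteins (75 higher), 0.56 for 21 cristae and carrier genes (20 higher) and 0.15 for 75 cytosolic ribosomal proteins. The 13 mitochondrially encoded subunits, partners of the nuclear ones in the same complexes, had a median of 0.14 there, with 9 higher and 0 past 1.5-fold, while 69 of 84 nuclear subunits were past 1.5-fold higher (13.2% of all genes). In 1K against R the mitochondrially encoded median was 0.70, with 13 of 13 higher, beside 0.81 for the nuclear genes. In 3KR against RR it was 0.31, with 10 of 13 higher, beside -0.45. These differences between lists were not tested.

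Within the TCA list, Cs, citrate synthase, was at 169 FPKM in C, 228 in R, 404 in 1K, 173 in 2K, 178 in 3K, 299.7 in RR, 331 in 1KR, 286 in 2KR and 144 in 3KR. Slc25a5, an adenine nucleotide carrier of the inner membrane, was at 361, 475, 1083, 563, 468, 807, 1177, 872 and 449.9 FPKM in that order. Both had their 4 highest values in 1K, RR, 1KR and 2KR. The 16 glycolysis genes tested had a median of 0.90 in 1K against R, close to that of the subunits, and of 0.69 in 2K and 0.55 in 3K.

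Among 19 regulators of mitochondrial gene expression the median was 0.12 in 1K against R (11 higher, 2 at least 2-fold) and 0.09 in RR against R (11 higher, 0 at least 2-fold). Ppargc1a, the coactivator PGC-1alpha, was at 11.4 FPKM in C, 19.95 in R, 48.9 in 1K, 10.3 in 2K, 6.12 in 3K, 29.4 in RR, 27.9 in 1KR, 27.5 in 2KR and 8.87 in 3KR. Esrra, the nuclear receptor ERR alpha that it activates, was at 69.1, 80.1, 133, 79.1, 64.5, 131, 146, 106 and 53.6 FPKM. Their 4 highest values fell in the same libraries as those of Cs. The median of the whole regulator list did not follow them. It was 12.4 FPKM in C, 11.8 in R, 12.5 in 1K, 14.0 in 2K, 12.25 in 3K, 13.1 in RR, 11.5 in 1KR, 11.5 in 2KR and 10.3 in 3KR. In 1KR against RR, 8 regulators were higher and 11 lower. Members with and without an NRF1 match in the promoter window had medians of 0.79 (21 genes) and 0.82 (46 genes) in RR against R, and of 0.76 and 0.83 in 1K against R. With and without an ETS match (17 and 50 genes) these were 0.95 and 0.76, and 0.87 and 0.80.

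Markers of the absorptive epithelium and of gut region also differed between these libraries. The 12 enterocyte markers had a median level of 311 FPKM in C, 468 in R, 872 in 1K, 231 in 2K, 223 in 3K, 630 in RR, 873 in 1KR, 641 in 2KR and 244 in 3KR. The 7 duodenal markers had medians of 13.7, 23.2, 58.9, 77.8, 30.3, 70.9, 68.2, 68.5 and 9.31 FPKM, and the 6 ileal markers 154.5, 176, 111, 0.93, 35.3, 25.9, 26.0, 72.5 and 110.5 FPKM, in that order. In RR against R, 9 of 12 enterocyte markers were higher, and all 6 ileal markers were lower with a median of -2.69. In 1K against R, 12 of 12 enterocyte markers were higher with a median of 1.06, and 8 of 8 smooth muscle markers were lower with a median of -0.63. In that comparison 8 of 9 immune markers were also lower with a median of -1.23, as were 11 of 12 cell cycle genes with a median of -0.95 and 5 of 6 adipocyte and brown fat markers with a median of -2.25. In RR against R, 5 of 9 immune markers and 9 of 12 cell cycle genes were lower, with medians of -0.27 and -0.29, and 4 of 7 adipocyte markers were higher, with a median of 0.31. The 6 general epithelial markers had medians of 668 FPKM in C, 602 in R, 531 in 1K, 213 in 2K, 321 in 3K, 534 in RR, 651 in 1KR, 644 in 2KR and 434 in 3KR, so that 1K and RR were below R and C. The part of cell make-up and of the region sampled in the subunit levels was not tested.

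**Figure D4:**
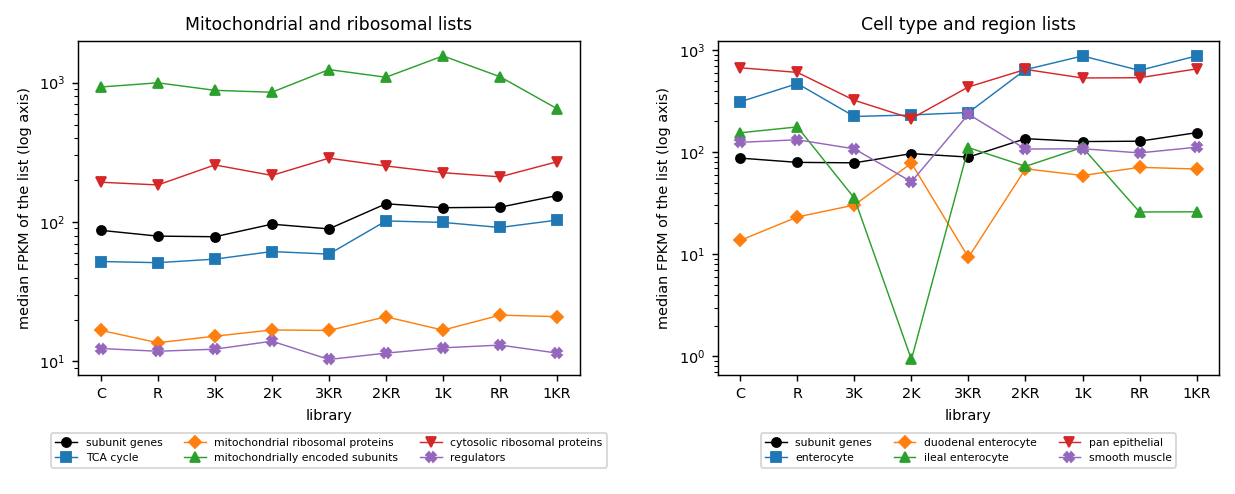
Median FPKM (vertical axis, log scale) of the subunit genes (black) and of other gene lists in the 9 libraries (horizontal axis), with mitochondrial and ribosomal lists at the left and cell type and region lists at the right. The subunit median runs from 78.4 FPKM in 3K to 155 FPKM in 1KR, and the enterocyte median from 223 to 873 FPKM in the same libraries.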

How the data were processed

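The deposited table gives 1 FPKM value per gene and library. Per the submitters' processing notes, the authors used HISAT2 and Cuffdiff 2.2.1 with build GRCm38. The annotation release and any filters are not given there. Per the labels' protocols, ribosomal RNA was depleted and stranded libraries were made without poly(A) selection, which leaves small RNAs and other noncoding RNAs in the FPKM total. The table holds no counts, so depth was estimated from the spacing of low FPKM values (14280000 to 31150000 fragments), with no counting interval.

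Differences were taken on the log2(FPKM + 0.5) scale, which understates changes of low genes, for genes that reached 1 FPKM in 1 of the compared libraries, and are descriptions, since each condition has 1 library. The factorial fit used limma 3.58.1 (R 4.3.3) with a mean-variance trend and Benjamini-Hochberg adjustment over all genes. It was checked on simulated data. Gene types and coordinates came from GENCODE M21 (327 genes of the table not found there), promoter windows from RefSeq. The motifs were searched as exact letters.

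The subunit genes, gene lists, markers and tests were chosen with earlier results of these data known. Genes named are the highest and lowest of each complex, the 3 highest and 3 lowest differences of a comparison among members reaching 5 FPKM in 1 of its libraries, the 3 smallest p of a fit term, the isoform genes and the most and least variable members. Cs, Slc25a5, Esrra, Ppargc1a, Ckm, Ucp1, Cidea, Dio2, Adipoq and Cox6c2 were singled out after their values were seen. Alternatives changed the pseudocount, the floor, the scaling, the member list, the variance model, the design and the libraries used.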

Additional observations from a re-analysis of the deposited data

Results flagged for a closer look

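The members' median differed in sign in 3 pairs of comparisons that ask a like question at different days. For the diet without tryptophan and niacin it was 0.24 in 2K against R and -0.075 in 2KR against RR, after the return to normal feed. For the diet deficient in all nutrients it was 0.018 in 3K against R, with 46 genes higher and 37 lower and 0.015 above the median of all genes, and -0.45 in 3KR against RR. Scaled to the nuclear protein-coding total these were -0.34 and -0.09 in the first pair and -0.30 and -0.29 in the second, so the sign no longer differed there. For DSS on the normal diet it was -0.15 in R against C and 0.66 in RR against C. Under that scaling the last pair was at -0.20 and 0.43. The difference within a pair has no test, since each condition has 1 library, and the comparisons of the last pair share C. The factorial fit tests neither the pair of the combined diet, which has no term of its own, nor the DSS pair, since C is left out. Closest to the first pair is the interaction of tryptophan and niacin with day, with a median coefficient of -0.12. It called 0 members (0.00569% of all genes higher, 0.142% lower), and with 2 residual degrees of freedom that does not decide the question. The methionine by day interaction, with a median of -0.40 and 0 members called (0% of all genes), matches none of the 3 pairs.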

How the results depend on the processing

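Of 316 values recomputed under alternatives, 274 stayed within 0.1 log2 for a median or within 1.5 times for a count, 40 moved further and 2 changed sign. Among the 274, 76 were counts of members called in the factorial fit, all of them 0. That fit as reported called at most 0.188% of all genes in a term, so these counts could hardly move. Several counts past 2-fold were likewise 0 both as reported and under an alternative. Each condition has 1 library and no replicate numbers to pair, so the only pairing was by diet. It set each day 33 library beside the day 28 library of its own or former diet. With diet as a block in this way for day 33 minus day 28, chosen after seeing the data, 0 members were called and 29 were at an unadjusted p under 0.05, all higher at day 33, beside 15.2% of all genes in either direction. With a pseudocount of 1, genes at least 2-fold higher in 3K against R and lower in 3KR against 3K came to 0 each, and with 0.1 the counts higher in 3KR against RR and lower in 2KR against 2K came to 1 each. A floor of 5 FPKM gave 0 higher in 3K against R, 3 higher in 1KR against 1K and 0 lower in 3KR against 3K. Median-of-ratios scaling gave a median of 0.56 and 6 genes 2-fold higher in RR against C, 0.73 and 15 in RR against R, 0.61 and 10 in 1K against R, and -0.34 with 1 higher and 9 lower in 3KR against RR, with 4 higher and 1 lower in 2KR against 2K. Scaling to the nuclear protein-coding total gave 0.43 and 4 in RR against C, 0.63 and 12 in RR against R, 0.28 and 0 in 1K against R, -0.34 with 2 lower in 2K against R, -0.30 with 0 higher in 3K against R, 0.15 in 1KR against RR, -0.29 with 1 higher and 8 lower in 3KR against RR, 0.45 in 1KR against 1K, 0.86 with 26 higher in 2KR against 2K, and 0.54 with 14 higher and 0 lower in 3KR against 3K. Under that scaling R was the lowest library in 10 genes (2.01% of all genes) and C in 1 (2.81%), and 1KR was the highest in 52 (5.98%). Without 2K, 3K and 3KR, R was the lowest in 57 (16.2%) and C in 25 (19.4%). These alternatives for the extremes were chosen after seeing the data. Both scalings also moved the median of all genes, and not always in the same direction. In 2KR against 2K it went from -0.10 to -0.17 with median-of-ratios scaling and to 0.26 with the protein-coding total. In 3KR against 3K it went from 0.01 to 0.04 and to 0.29. The share of all genes past 2-fold was not taken under these scalings, so the counts past 2-fold have no background there. In the factorial fit the alternatives were run for the diet terms of each day and for day 33 minus day 28, not for the interactions. The count of members called was 0 under the pseudocounts, scalings, floor, variance model and additive design. The additive design called 0% of all genes for methionine, 0.00569% for tryptophan and niacin and 0.0228% for day, and the diet block 0%. Under the other alternatives the share of all genes called was not taken. The leave-one-out fits have 1 residual degree of freedom, and only their medians are given above.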
